A study of Homo sapiens with 12 samples.

Results

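The genes described here are 10 integrin subunit genes, 5 of alpha subunits (ITGA2, ITGA3, ITGA5, ITGA6 and ITGAV) and 5 of beta subunits (ITGB1, ITGB2, ITGB4, ITGB5 and ITGB6). They were taken by gene symbol from a list of names, and all 10 of the 10 listed were found among the 11529 genes of the expression table. RNA-seq covered 12 samples of 2 triple-negative breast cancer lines, with 3 controls and 3 SMARCA4 KO samples from MDA-MB-468 and as many from MDA-MB-231. SMARCA4 encodes a catalytic ATPase of the SWI/SNF chromatin remodeling complex. The control samples carry the genotype wild type in the labels, and the study's methods describe the KO cells as polyclonal pools made with 1 guide RNA against SMARCA4 in the lentiCRISPR-v2 vector and selected with puromycin. The deposited table names the same samples as controls, and the study used both unedited parental cells and cells given a nontargeting CRISPR vector. Which of these were sequenced could not be settled, so transduction and puromycin selection cannot be told apart from the KO. All cells were grown in the same serum-containing DMEM, and the labels name no drug treatment. A pool of edited and unedited cells gives 1 RNA level, so fewer cells with a transcript and less transcript per cell cannot be told apart. Nothing states that the 3 samples of a group came from separate cultures, and p-values then measure only the spread between these samples.

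Integrins are cell surface receptors made of 1 alpha and 1 beta subunit, which bind the extracellular matrix or other cells outside and link to the actin or intermediate filament cytoskeleton inside. The beta1 subunit pairs with many alpha subunits, the alpha6 subunit also with beta4, the alphaV subunit with beta1, beta5, beta6 and others, and the beta2 subunit with leukocyte alpha subunits. The alpha3beta1, alpha6beta1 and alpha6beta4 receptors bind laminins, alpha2beta1 binds collagens, alpha5beta1 binds fibronectin, and the alphaV receptors bind matrix proteins with an RGD motif and the latency peptide of TGF-beta.

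The members lie apart in the genome (GRCh37, GENCODE release 44). ITGA3 is at chr17:48133332-48167845 on the plus strand, ITGB4 on the same strand of that chromosome at chr17:73717408-73753899, ITGA6 at chr2:173292082-173371187, ITGAV at chr2:187454737-187545628 and ITGA2 at chr5:52285170-52390609. On the minus strand are ITGA5 at chr12:54789045-54813050, ITGB1 at chr10:33176201-33294720, ITGB2 at chr21:46305868-46351904, ITGB5 at chr3:124480795-124620265 and ITGB6 at chr2:160956178-161056824. The antisense gene ITGB2-AS1 covers 303 of the exon bases of ITGB2 (4.15%), and a long noncoding gene on the same strand covers 966 of ITGB6 (16.7%). The library kit keeps strand, but the strand setting of the authors' quantification is not given in the sources used here, so reads in these stretches may belong to either gene.

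The DNA before the start of ITGA5 and of ITGB6 is shown because the RNA of these genes differed most between the cell lines (below 4 FPKM against over 55 FPKM for ITGA5, and over 23 FPKM against below 1 FPKM for ITGB6). The sequences are from RefSeq windows of GRCh38.p14, were found at 1 place each in GRCh37, and are given on the gene's strand without the bases inside the annotated gene. Motifs were searched on both strands. Capitals mark GGAATG, the core letters of a TEAD motif, and CACCTG, an E-box.
ITGA5, chr12:54813051-54813300, minus strand: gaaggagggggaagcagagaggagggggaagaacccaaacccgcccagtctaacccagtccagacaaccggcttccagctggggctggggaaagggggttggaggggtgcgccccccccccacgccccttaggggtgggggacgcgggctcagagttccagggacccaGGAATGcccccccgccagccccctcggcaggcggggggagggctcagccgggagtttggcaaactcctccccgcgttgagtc
ITGB6, chr2:161056825-161057033, minus strand: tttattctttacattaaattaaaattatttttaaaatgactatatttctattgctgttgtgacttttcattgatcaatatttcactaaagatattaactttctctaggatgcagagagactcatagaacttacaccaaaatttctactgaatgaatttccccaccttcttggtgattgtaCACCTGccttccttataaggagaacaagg
G and C made up 70% of the ITGA5 sequence and 30.1% of the ITGB6 sequence, and the median over all 35116 windows of 250 bases was 58%. The letters GGAATG were in the windows of ITGA5 and ITGB1, which is 2 of the 7 members with a window, and in 11.9% of all windows. The letters CACCTG were in the windows of ITGA6 and ITGB6 (2 of 7, against 17.5% of all windows), and TGACTCA, an AP-1 motif, was in 0 of 7 against 4.2%. These matches only describe letters, and binding was not measured here.

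Expression values were log2(FPKM + 1), where FPKM counts fragments relative to transcript length and to the mapped fragments of the sample, so levels of different genes can be compared; the read depth behind them is unknown. Each sample had 11293 to 11362 genes above 0, and samples of 1 group correlated across genes at 0.989 to 0.995. The FPKM of SMARCA4 was 96.9, 97.4 and 101.3 in the MDA-MB-468 controls and 39.7, 43.5 and 47.7 in the KO samples. In MDA-MB-231 it was 67.5, 71.5 and 67.0 in controls and 21.0, 23.9 and 22.6 in KO samples. KO samples thus held 44.3% and 32.7% of the control level, and the log2 decrease in MDA-MB-231 was larger by 0.41 (SE 0.11, adjusted p = 0.027). Markers of the lines were compared between the controls. They were chosen with earlier results of these data known, so their order is a description and no check of identity. All 8 epithelial and basal markers (such as CDH1, EPCAM and KRT5) were higher in MDA-MB-468 controls, and all 5 mesenchymal markers (such as VIM and AXL) were higher in MDA-MB-231 controls. Of 12 leukocyte markers, LAPTM5 and CD14 could be tested, and of 8 fibroblast markers 0 could be.

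Most members differed in RNA level between the control cells of the lines, as did most genes of the table. A gene is called below where limma gave an adjusted p under 0.05 together with a log2 difference beyond 0.5 in size. Between the control groups 8 of the 10 members were called, against 64.2% of all genes, so the share of the members stood near that of the table. MDA-MB-468 had 6 members lower (31.4% of all genes were called lower) and 2 higher (32.8%). The control samples of 9 members did not overlap between the lines (85.5% of all genes). The fibronectin receptor subunit ITGA5 had 2.67, 2.54 and 2.24 FPKM in MDA-MB-468 controls and 69.3, 71.8 and 69.6 in MDA-MB-231 controls, a log2 difference of -4.36 (SE 0.13, adjusted p = 1.4e-11). The laminin receptor subunits ITGA3 (46.0 ± 1.1 against 325.1 ± 7.1 FPKM, mean ± SD, n = 3), ITGA6 (29.5 ± 0.42 against 116.5 ± 7.3) and ITGB4 (26.4 ± 2.1 against 56.8 ± 9.9) were lower in MDA-MB-468 as well, by 2.79, 1.94 and 1.07 on the log2 scale. So were the collagen receptor subunit ITGA2 (6.16 ± 0.27 against 36.6 ± 2.4 FPKM) and the shared subunit ITGB1 (89.6 ± 6.1 against 470.4 ± 19.7 FPKM).

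ITGB6, the subunit of an epithelial alphaV receptor, showed the opposite order. It had 31.4, 28.02 and 25.8 FPKM in MDA-MB-468 controls and 0.41, 0.54 and 0.88 in MDA-MB-231 controls, a log2 difference of 4.20 (SE 0.12, adjusted p = 8.2e-12). Its partner ITGAV was also higher in MDA-MB-468 (49.7 ± 2.9 against 31.8 ± 1.8 FPKM, log2 difference 0.63, SE 0.073, adjusted p = 5.2e-06). ITGB5 had 59.5 ± 6.4 FPKM in one line and 61.8 ± 10.04 in the other, and the 95% interval of its log2 difference ran from -0.32 to 0.22. The leukocyte-type subunit ITGB2 was low in both lines (1.76 ± 0.38 against 2.75 ± 0.31 FPKM), and its log2 difference of -0.45 (adjusted p = 0.0040) was under the fold limit.

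Within the MDA-MB-468 controls, ITGB1 was the highest member, followed by ITGB5, ITGAV and ITGA3, and no sample of one overlapped with the next in this order. ITGA6, ITGB6 and ITGB4 came next with 26.4 to 29.5 FPKM on average, and their samples overlapped between neighbours. ITGA2, ITGA5 and ITGB2 were lowest and did not overlap. In MDA-MB-231 controls the order was ITGB1, ITGA3, ITGA6, ITGA5, ITGB5, ITGB4, ITGA2, ITGAV, ITGB2 and ITGB6, and of these neighbours only ITGB5 and ITGB4 overlapped. A processed copy of ITGB1, ITGB1P1, was listed at 1.7% to 3.1% of the FPKM of ITGB1 in the 12 samples, and reads that fit both genes leave ITGB1 uncertain where they were split.

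SMARCA4 KO was then compared with control in each cell line. In MDA-MB-468, ITGB2 was the 1 member of 10 called (10%, against 2.14% of all genes), and it rose (1.33% of all genes were called higher and 0.815% lower). In MDA-MB-231, 2 of 10 were called (20%, against 3.7% of all genes): ITGB4 rose and ITGB2 fell, where 2.39% of all genes were called higher and 1.31% lower. An unadjusted p under 0.05 was found for 3 members in MDA-MB-468 (25.1% of all genes) and 4 in MDA-MB-231 (31.2%). The members were not tested as a set. The KO and control samples of 4 members did not overlap in MDA-MB-468, all with KO higher (31% of all genes did not overlap), and those of 5 did not overlap in MDA-MB-231, 4 with KO higher (36% of all genes), so that both shares stood close to those of the table. The median log2 difference of the members was 0.14 for MDA-MB-468 and 0.12 for the other line, and that of all genes was 0.016 and -0.0064.

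Among the laminin receptor subunits, ITGB4, which anchors epithelial cells in hemidesmosomes, had 45.4, 63.2 and 61.9 FPKM in MDA-MB-231 controls and 96.6, 110.9 and 85.9 in KO samples. Every KO sample lay above every control, and the mean was 172% of control (log2 difference 0.78, SE 0.16, adjusted p = 0.039). The adjusted p was over 0.05 when any 1 of the 6 samples was left out (0.061 to 0.12), with log2 differences of 0.63 to 0.87. In MDA-MB-468 cells ITGB4 had 25.7, 24.6 and 28.75 FPKM in controls and 32.5, 39.0 and 43.8 in KO samples, again without overlap. The log2 difference of 0.52 (SE 0.12, adjusted p = 0.074) was not called. It was called when KO replicate 1, the lowest KO sample, was left out (0.63, adjusted p = 0.037), in 1 fit of all 12 samples (adjusted p = 0.040) and among genes with a mean log2 value over 2 (adjusted p = 0.038). The difference between the lines was -0.26 (95% interval -0.71 to 0.18, adjusted p = 0.40).

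ITGA3, which pairs with beta1 in a laminin receptor, had 46.8, 44.8 and 46.5 FPKM in MDA-MB-468 controls and 59.3, 73.3 and 86.5 in KO samples. The KO samples were higher and spread more widely than the controls, and the log2 difference of 0.64 (SE 0.14, adjusted p = 0.063) was not called. Without KO replicate 1 it was 0.78 with an adjusted p of 0.023, in 1 fit of all 12 samples the adjusted p was 0.0037, and among genes with a mean log2 value over 2 it was 0.027. In MDA-MB-231 cells ITGA3 had 331, 327.2 and 317.2 FPKM in controls and 430.6, 421.7 and 387.8 in KO samples, without overlap and at 127% of control. Its log2 difference of 0.34 (SE 0.056, adjusted p = 0.024) was under the limit of 0.5. All 3 MDA-MB-468 KO samples lay below the lowest MDA-MB-231 control.

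ITGA6, the alpha partner of beta4, was not called in either line. It had 29.9, 29.4 and 29.1 FPKM in MDA-MB-468 controls and 31.0, 32.7 and 30.3 in KO samples. The KO samples were higher by a small margin (log2 difference 0.083, 95% interval -0.034 to 0.20, adjusted p = 0.33). In MDA-MB-231 cells ITGA6 had 123.4, 117.0 and 109.0 FPKM in controls and 148.7, 129.1 and 126.2 in KO samples (log2 difference 0.21, 95% interval -0.00070 to 0.41, adjusted p = 0.16). ITGA3, ITGA6 and ITGB4 were thus the 3 members whose KO samples all lay above the controls in both lines. In the same direction in both lines, 5.75% of all genes did not overlap.

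ITGB1, the common partner of ITGA2, ITGA3, ITGA5 and ITGA6, showed no called change. It had 95.6, 89.7 and 83.4 FPKM in MDA-MB-468 controls and 72.1, 81.3 and 83.6 in KO samples, which overlapped (log2 difference -0.18, 95% interval -0.38 to 0.021, adjusted p = 0.24). In MDA-MB-231 cells the means were 470.4 ± 19.7 and 471.8 ± 45.1 FPKM, and the 95% interval of the log2 difference ran from -0.20 to 0.20.

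The collagen receptor subunit ITGA2 had 35.8, 39.3 and 34.7 FPKM in MDA-MB-231 controls and 56.2, 48.3 and 49.9 in KO samples. The KO samples were all higher, at 141% of control, and the log2 difference of 0.48 (SE 0.079, adjusted p = 0.025) lay just under the limit of 0.5. It passed the limit with scaling to the same 75th percentile (0.52, adjusted p = 0.025), with quantile normalization (0.52, adjusted p = 0.027) and without control replicate 2 (0.53, adjusted p = 0.047). In MDA-MB-468 cells ITGA2 had 6.36, 5.85 and 6.26 FPKM in controls and 4.91, 7.64 and 9.95 in KO samples. The KO samples lay on both sides of the controls, and the 95% interval of the log2 difference ran from -0.35 to 0.75.

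The fibronectin receptor subunit ITGA5 was not called in either line. Its FPKM was 2.67, 2.54 and 2.24 in MDA-MB-468 controls and 2.83, 2.40 and 3.78 in KO samples (log2 difference 0.19, 95% interval -0.14 to 0.52). In MDA-MB-231 it was 69.3, 71.8 and 69.6 in controls and 77.6, 63.65 and 55.5 in KO samples (log2 difference -0.11, 95% interval -0.41 to 0.19). The KO samples overlapped with the controls in both lines and were more spread.

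The alphaV group had no called change. For ITGAV the 95% interval of the log2 difference ran from -0.30 to 0.074 in MDA-MB-468 and from -0.075 to 0.19 in MDA-MB-231, and for ITGB5 from -0.22 to 0.36 and from -0.21 to 0.40. For ITGB6 it ran from -0.36 to 0.22 in MDA-MB-468, with 28.4 ± 2.8 FPKM in controls and 27.1 ± 3.6 in KO samples. In MDA-MB-231 all 6 samples had under 1 FPKM of ITGB6 (0.61 ± 0.24 and 0.76 ± 0.082). On the log2(FPKM + 1) scale, differences of 0.5 lay outside the intervals of all 3 genes in both lines. Such intervals were found for 5 members in MDA-MB-468 and for 7 in MDA-MB-231, ITGB6 among them. At under 1 FPKM this scale understates change. The log2 difference of ITGB6 in MDA-MB-231 was 0.14, and it was 0.33 with 0.1 in place of 1 added to the FPKM. Its interval therefore does not exclude a change of that size in FPKM.

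ITGB2, the beta subunit of leukocyte integrins, moved in opposite directions. In MDA-MB-468 cells it had 1.49, 2.19 and 1.59 FPKM in controls and 3.85, 3.43 and 3.45 in KO samples. The groups did not overlap, and the KO mean was 204% of control (log2 difference 0.74, SE 0.11, adjusted p = 0.033). When the samples of this line were paired by their replicate number (a block in the fit), the adjusted p was 0.066. The call was also lost without control replicate 1 (0.083), control replicate 2 (0.070), control replicate 3 (0.096), KO replicate 2 (0.12) or KO replicate 3 (0.11), all adjusted p, and held without KO replicate 1 (0.048). The log2 difference stayed between 0.67 and 0.85 in these fits. A block by the number in the sample descriptions lost the call as well. In all, 7 of the 13 alternatives that keep the gene lost it, with an adjusted p of up to 0.146.

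In MDA-MB-231 cells ITGB2 had 2.45, 2.75 and 3.06 FPKM in controls and 1.48, 0.93 and 0.87 in KO samples. Every KO sample was lower than every control, with a mean of 39.7% of control (log2 difference -0.85, SE 0.13, adjusted p = 0.020). The adjusted p was over 0.05 without control replicate 2 (0.059), control replicate 3 (0.060), KO replicate 2 (0.086) or KO replicate 3 (0.053), and under it without control replicate 1 (0.049) or KO replicate 1 (0.042). The log2 values understate the change of a gene at this level, and with 0.1 in place of 1 added to the FPKM the difference was 1.003 for MDA-MB-468 and -1.29 for MDA-MB-231.

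The change of ITGB2 differed between the lines by 1.59 on the log2 scale (SE 0.17, 95% interval 1.22 to 1.96, adjusted p = 0.00036), with KO higher in 3 of 3 samples of one line and lower in 3 of 3 of the other. It was the 1 member called in this test, against 14.7% of all genes, and the 1 member called in both KO comparisons, against 0.33% of all genes. Genes called in opposite directions made up 0.121% of the table, and those whose groups did not overlap in opposite directions 5.4%. Genes with an SD of FPKM below 1 had been dropped from the table. The control samples of ITGB2 ran only from 1.49 to 3.06 FPKM, which is too narrow for an SD of 1. The gene was thus kept only through its KO samples. Its calls beside the shares of the table are therefore a description and no support. The control level of ITGB2 was lower in MDA-MB-468 than that of the other line, and its KO level was higher (3.58 ± 0.24 against 1.09 ± 0.34 FPKM). The alpha partners of beta2 in leukocytes (ITGAL, ITGAM, ITGAX and ITGAD) were among 16 other subunits looked up by symbol, but not among the 4 of these that could be tested. Of the 2 leukocyte markers tested, LAPTM5 fell in MDA-MB-231 KO cells from 36.8 ± 0.94 to 19.1 ± 2.8 FPKM (log2 difference -0.92, adjusted p = 0.012), and CD14 rose from 1.16 ± 0.33 to 3.98 ± 1.2 FPKM (1.18, adjusted p = 0.029). In MDA-MB-468 cells LAPTM5 was at 0 to 0.05 FPKM in all 6 samples, and CD14 had 49.6 ± 3.4 FPKM in controls and 37.1 ± 22.8 in KO samples. The sum of both markers ran from 36.7 to 39.2 FPKM in MDA-MB-231 controls and from 18.6 to 26 in KO samples, and from 46.05 to 52.9 and 20.8 to 63.2 in MDA-MB-468. Their part in the result was not tested.

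**Figure D1:**
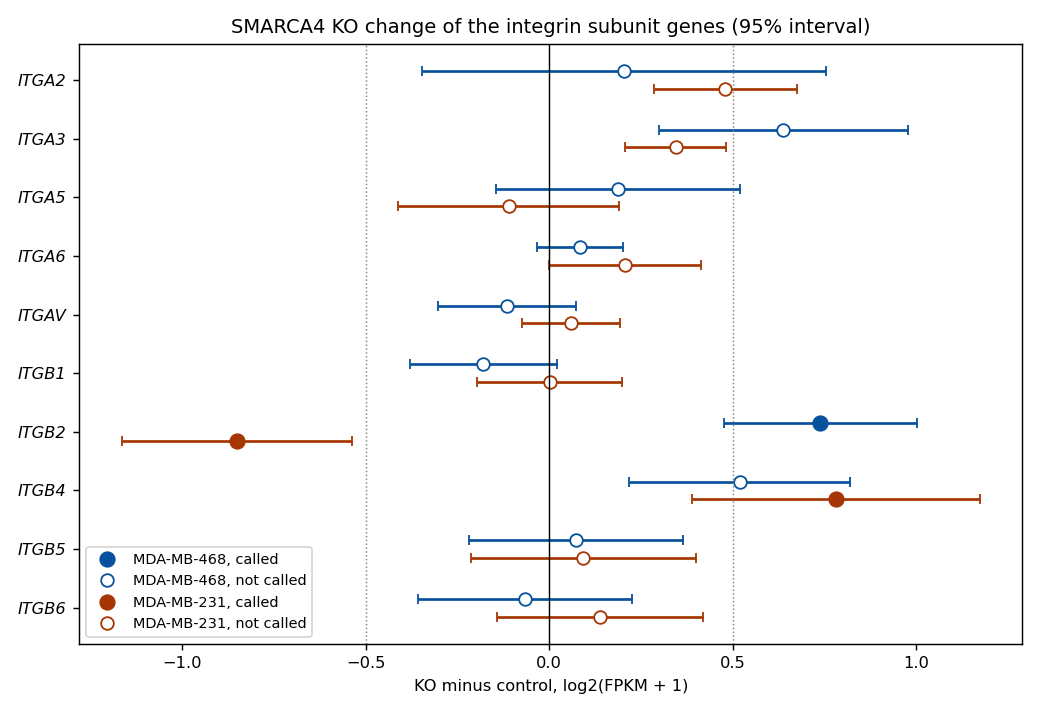
Difference of SMARCA4 KO minus control for each member, in log2(FPKM + 1), with its 95% interval; blue is MDA-MB-468, brown is MDA-MB-231, filled points are called and dotted lines mark 0.5 on both sides of 0. The 2 points of ITGB2 lie at 0.74 and -0.85 on opposite sides of 0, and the points of ITGA3 and ITGB4 lie right of 0 in both lines.

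For the other members the difference between the lines was not called. The 95% interval was widest for ITGA2 (-0.80 to 0.24) and narrowest for ITGAV (-0.40 to 0.052) on the log2 scale. The sign of the change was opposite in 5 of the 10 members, of which only ITGB2 had groups that did not overlap in both lines.

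The composition of the subunit RNA is given as shares of the summed FPKM, as a description without a test. The summed FPKM of the 5 beta subunits was 205.5 ± 11.7 in MDA-MB-468 controls and 210.7 ± 16.8 in KO samples, and 592.4 ± 27.3 and 636.8 ± 42.6 in MDA-MB-231. ITGB1 made up 42.7% to 44.6% of it in MDA-MB-468 controls and 36.6% to 39.0% in KO samples, and 77.0% to 82.7% and 70.8% to 76.2% in MDA-MB-231. ITGB4 made up 11.7% to 14.95% and then 16.6% to 19.2% in MDA-MB-468, and 7.96% to 10.6% and then 14.1% to 18.0% in MDA-MB-231. In both lines the share of ITGB4 was higher and that of ITGB1 lower in every KO sample than in any control. A share falls when another member's FPKM rises.

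Among the alpha subunits, ITGA3 and ITGAV were the largest in MDA-MB-468 controls (34.4% ± 0.75 and 37.1% ± 1.6). In the KO samples ITGA3 held 45.2% ± 3.0 and ITGAV 28.6% ± 1.5. In MDA-MB-231 ITGA3 held most of the alpha sum, 56.1% ± 0.47 in controls and 59.2% ± 1.4 in KO samples, while ITGAV held 5.48% ± 0.17 and 4.76% ± 0.37. The FPKM of ITGA3 relative to that of its partner ITGB1 was 0.49 to 0.56 in MDA-MB-468 controls and 0.82 to 1.04 in KO samples, and 0.67 to 0.70 and 0.82 to 0.97 in MDA-MB-231. For ITGB4 relative to ITGA6 the ratio was 0.84 to 0.99 and 1.05 to 1.45 in MDA-MB-468, and 0.37 to 0.57 and 0.65 to 0.86 in MDA-MB-231. Both ratios were higher in each KO sample than in any control of the same line, as was that of ITGA6 to ITGB1. Other ratios were not: those of ITGB5 and ITGB6 to ITGAV overlapped between KO and control in both lines. The ratio of ITGA2 to ITGB1 overlapped in MDA-MB-468, and that of ITGA5 to ITGB1 in MDA-MB-231. No share over other gene pairs was taken for comparison.

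**Figure D2:**
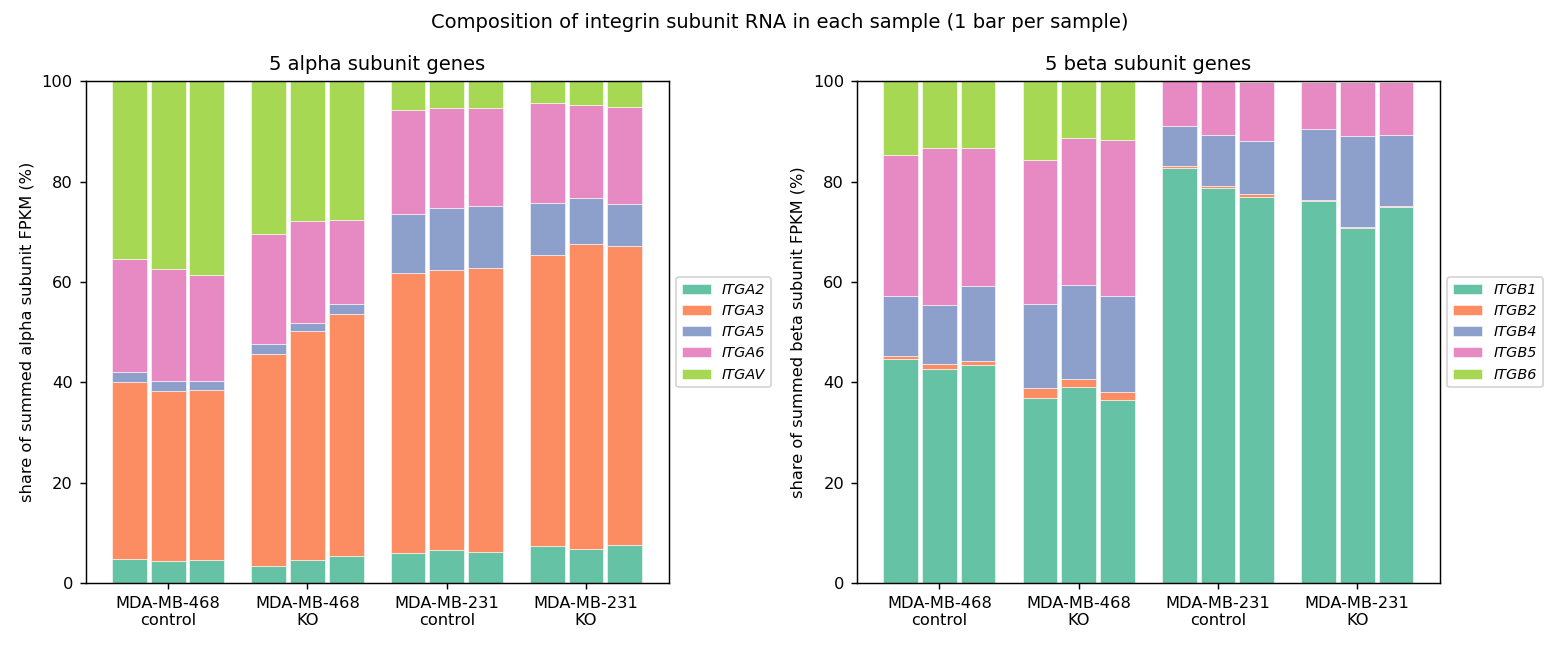
Share of each alpha subunit gene (left) and beta subunit gene (right) in the summed FPKM of the 5 genes of its kind, in percent, with 1 stacked bar per sample. ITGB1 takes 42.7% to 44.6% of the beta sum in MDA-MB-468 controls and 77.0% to 82.7% in MDA-MB-231 controls, and the ITGB4 part is larger in every KO bar than in the controls of the same line.

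Of 16 other integrin subunits 4 could be tested, and 0 were called in either KO comparison in limma (1 of 4 in each had an unadjusted p under 0.05). ITGB8, which with alphaV activates latent TGF-beta, had 5.83, 5.23 and 5.71 FPKM in MDA-MB-468 controls and 8.21, 7.34 and 8.06 in KO samples. The groups did not overlap, but the log2 difference of 0.43 (SE 0.063, adjusted p = 0.033) was under the limit. In MDA-MB-231 ITGB8 was at 0.18 to 0.38 FPKM, and the difference between the lines was called (0.59, SE 0.091, adjusted p = 0.0023). ITGAE had 34.3 to 47.4 FPKM on average in the 4 groups, while ITGA1 was at 4.16 ± 0.25 FPKM in MDA-MB-231 controls and at 0.01 to 0.14 FPKM in the MDA-MB-468 samples, and ITGB7 at 2.90 ± 0.39 FPKM in MDA-MB-468 controls.

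Of the matrix ligands, 23 of 29 listed genes were tested, with 2 called higher and 0 lower in MDA-MB-468 and 2 higher and 1 lower in MDA-MB-231 (8.7% and 13%, where all genes had 2.14% and 3.7%). The median log2 difference was 0.062 and 0.027, beside 0.016 and -0.0064 for all genes, and these values of all genes also stand beside the lists that follow. The difference between the lines was called for 5 of the 23 (21.7%, against 14.7% of all genes). TNC, encoding the matrix glycoprotein tenascin-C, a ligand of alphaV receptors, was called in both lines in opposite directions, as ITGB2 was. It had 0.82, 0.80 and 1.07 FPKM in MDA-MB-468 controls and 2.82, 2.99 and 3.50 in KO samples (log2 difference 1.11, SE 0.089, adjusted p = 0.014). In MDA-MB-231 it had 40.7, 43.4 and 35.2 FPKM in controls and 20.4, 17.4 and 18.3 in KO samples (-1.04, SE 0.098, adjusted p = 0.0082). The difference between the lines was 2.16 (SE 0.14, adjusted p = 1.1e-05). The basement membrane collagen COL4A1 rose in MDA-MB-468 KO cells from 0.99 ± 0.12 to 1.89 ± 0.27 FPKM (adjusted p = 0.039). In MDA-MB-231 KO cells COL6A2, a collagen VI chain, rose from 16.9 ± 1.2 to 40.0 ± 4.6 FPKM (adjusted p = 0.0078) and HSPG2, the basement membrane proteoglycan perlecan, from 28.3 ± 2.5 to 48.1 ± 6.3 FPKM (adjusted p = 0.022). In the other line COL4A1 had a log2 difference of 0.11 and HSPG2 of 0.30, neither called, and the difference between the lines was not called for either (adjusted p = 0.050 and 0.18). It was called for COL6A2 (-1.16, adjusted p = 0.00029), which was at 0 to 0.05 FPKM in MDA-MB-468.

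The ligand list of beta2 integrins had 4 of 8 genes tested, with 1 called in MDA-MB-468 cells (25%). In MDA-MB-231 there were 0 (2 of 4 had an unadjusted p under 0.05 in limma), and the medians were -0.028 and -0.12. ICAM1, the main ligand of these receptors, rose in MDA-MB-468 KO cells from 28.6, 31.3 and 28.6 to 50.3, 40.2 and 47.1 FPKM (log2 difference 0.62, SE 0.094, adjusted p = 0.035). In MDA-MB-231 it had 71.9 ± 18.9 FPKM in controls and 72.9 ± 9.5 in KO samples, and the difference between the lines was not called (0.57, adjusted p = 0.11). Another list held latent TGF-beta, whose latency peptide is the ligand of alphaVbeta6 and alphaVbeta8, and the binding proteins of latent TGF-beta. Of its 7 genes 6 were tested, with 2 called for MDA-MB-468 (33.3%) and 1 for the other line (16.7%). The medians were 0.027 and 0.25. TGFB1 rose in MDA-MB-468 KO cells from 6.46, 6.85 and 6.66 to 17.1, 15.9 and 17.0 FPKM (1.20, SE 0.049, adjusted p = 0.0048), and TGFB3 fell from 1.98 ± 0.30 to 0.69 ± 0.087 FPKM (-0.81, adjusted p = 0.020). In MDA-MB-231 KO cells LTBP3, a binding protein of latent TGF-beta, rose from 11.8 ± 2.4 to 25.8 ± 5.5 FPKM (1.06, adjusted p = 0.036). In the other line TGFB1 and TGFB3 had log2 differences of 0.19 and -0.63 and LTBP3 of 0.28, none of them called. The difference between the lines was called for TGFB1 (1.02, adjusted p = 3.3e-05) and LTBP3 (-0.77, adjusted p = 0.039) and not for TGFB3 (adjusted p = 0.71).

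Of the hemidesmosome genes that work with alpha6beta4 (PLEC, DST, COL17A1, CD151 and the chains of laminin-332), all 7 were tested and 0 were called in either line in limma, with 1 and 3 at an unadjusted p under 0.05 and medians of 0.050 and 0.15. PLEC, the plakin that binds beta4, had 149.7 ± 7.0 FPKM in MDA-MB-231 controls and 167.9 ± 10.1 in KO samples (log2 difference 0.16, adjusted p = 0.15), and COL17A1 had 8.78 ± 1.1 and 11.98 ± 1.1 (0.41, adjusted p = 0.059).

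Inside the cell, integrin tails bind activators such as talin and kindlin and adaptors such as paxillin. Of 40 such genes 36 were tested, with 1 called for MDA-MB-468 (2.78%) and 5 for MDA-MB-231 (13.9%), and medians of 0.051 and -0.039. Of all genes 2.14% and 3.7% were called, so that the share of the list stood near the background in MDA-MB-468 and above it in the other line. All lists were chosen with earlier results of these data known, so a share above that of all genes is only a description. LIMS2, an ILK-binding adaptor, rose in MDA-MB-468 KO cells from 0.50 ± 0.12 to 2.43 ± 0.71 FPKM (log2 difference 1.17, adjusted p = 0.033). In MDA-MB-231 KO cells the kinase PTK2B, a relative of FAK, rose from 3.82 ± 0.23 to 8.96 ± 0.33 FPKM (1.05, adjusted p = 0.0029) and the scaffold NEDD9 from 13.9 ± 3.1 to 35.0 ± 3.0 FPKM (1.29, adjusted p = 0.015). LPXN, the paxillin relative leupaxin, fell from 22.95 ± 3.9 to 7.54 ± 0.45 FPKM (-1.48, adjusted p = 0.0078), APBB1IP, which links RAP1 to talin, from 6.45 ± 1.2 to 3.40 ± 0.47 FPKM (-0.75, adjusted p = 0.029) and the kinase FYN from 23.4 ± 1.1 to 16.2 ± 2.0 FPKM (-0.51, adjusted p = 0.033). In MDA-MB-468 cells PTK2B had 2.81, 3.99 and 3.91 FPKM in controls and 5.41, 8.13 and 11.3 in KO samples. These groups did not overlap either, the log2 difference of 0.98 (adjusted p = 0.088) was not called, and the difference between the lines was -0.067 (95% interval -0.64 to 0.50). The difference between the lines was called for 8 of the 36 genes (22.2%, against 14.7% of all genes), in each case with the higher KO minus control value in MDA-MB-468. These were LPXN (1.41, adjusted p = 0.00080), LIMS2 (1.31, adjusted p = 0.0054), ZYX (0.88, adjusted p = 0.0024), APBB1IP (0.75, adjusted p = 0.0072), ACTN1 (0.58), TLN1 (0.43), KANK1 (0.41) and RSU1 (0.39). APBB1IP was listed at 0 in the 6 MDA-MB-468 samples. The difference was not called for NEDD9 (adjusted p = 0.060) or FYN (adjusted p = 0.57).

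The 6 inhibitors, 14 surface partners and 9 trafficking genes tested had 0 calls in either line in limma. At an unadjusted p under 0.05 MDA-MB-468 had 1, 5 and 0 and MDA-MB-231 had 2, 2 and 1. Their medians were 0.16, -0.062 and -0.075 for MDA-MB-468 and -0.093, -0.0010 and -0.083 for MDA-MB-231.

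The markers of the lines were compared between KO and control as well. In MDA-MB-231 KO cells 1 of the 8 MDA-MB-468 markers was called, CDH1 (E-cadherin, 0.27 ± 0.15 to 0.84 ± 0.20 FPKM, adjusted p = 0.044), while in MDA-MB-468 cells 0 of 8 were called in limma (2 at an unadjusted p under 0.05). The sum of the 8 markers ran from 3389 to 3625 FPKM in MDA-MB-468 controls and from 3708 to 3824 in KO samples, and from 317.8 to 418.5 and 416.1 to 480.9 in MDA-MB-231. Of the 5 mesenchymal MDA-MB-231 markers 0 were called in either line in limma, with 1 and 3 at an unadjusted p under 0.05. In MDA-MB-468 all 5 had a positive log2 difference, and the sum was 104.8 to 124.7 FPKM in controls and 148 to 162.7 in KO samples. CAV1, the caveola protein caveolin-1, had 15.04, 20.7 and 22.3 FPKM in these controls and 33.9, 63.4 and 70.2 in KO samples (log2 difference 1.44, adjusted p = 0.062). In MDA-MB-231 4 of the 5 had a negative difference, and the sum was 2073 to 2342 FPKM in controls and 1682 to 1862 in KO samples. VIM, the intermediate filament protein vimentin, was at 76.3% of control there (-0.39, adjusted p = 0.031, under the limit of 0.5). The summed levels of the mesenchymal markers thus did not overlap between KO and control in either line, with KO higher in MDA-MB-468 and lower in MDA-MB-231. In MDA-MB-468 the rise lay mainly in CAV1, which was not called, while MSN had 95.4 ± 8.3 and 96.7 ± 11.9 FPKM. In MDA-MB-231 the fall lay mainly in VIM (1309 ± 88.3 to 998.3 ± 53.9 FPKM). The sum of the 8 epithelial and basal markers did not overlap in MDA-MB-468 either, again with KO higher. Most of that sum was KRT19 (1992 ± 175.1 and 2082 ± 71.7 FPKM), KRT5 and EGFR, whose groups overlapped. Single markers went both ways, with a positive log2 difference in 4 of the 8. Only 3 of the 8 did not overlap between KO and control in this line, and all 3 were lower in KO. They were ERBB3 (log2 difference -0.53), ESRP1 (-0.13) and EPCAM (-0.095), none of them called. The part of these markers in the results of the integrin genes was not tested.

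**Figure D3:**
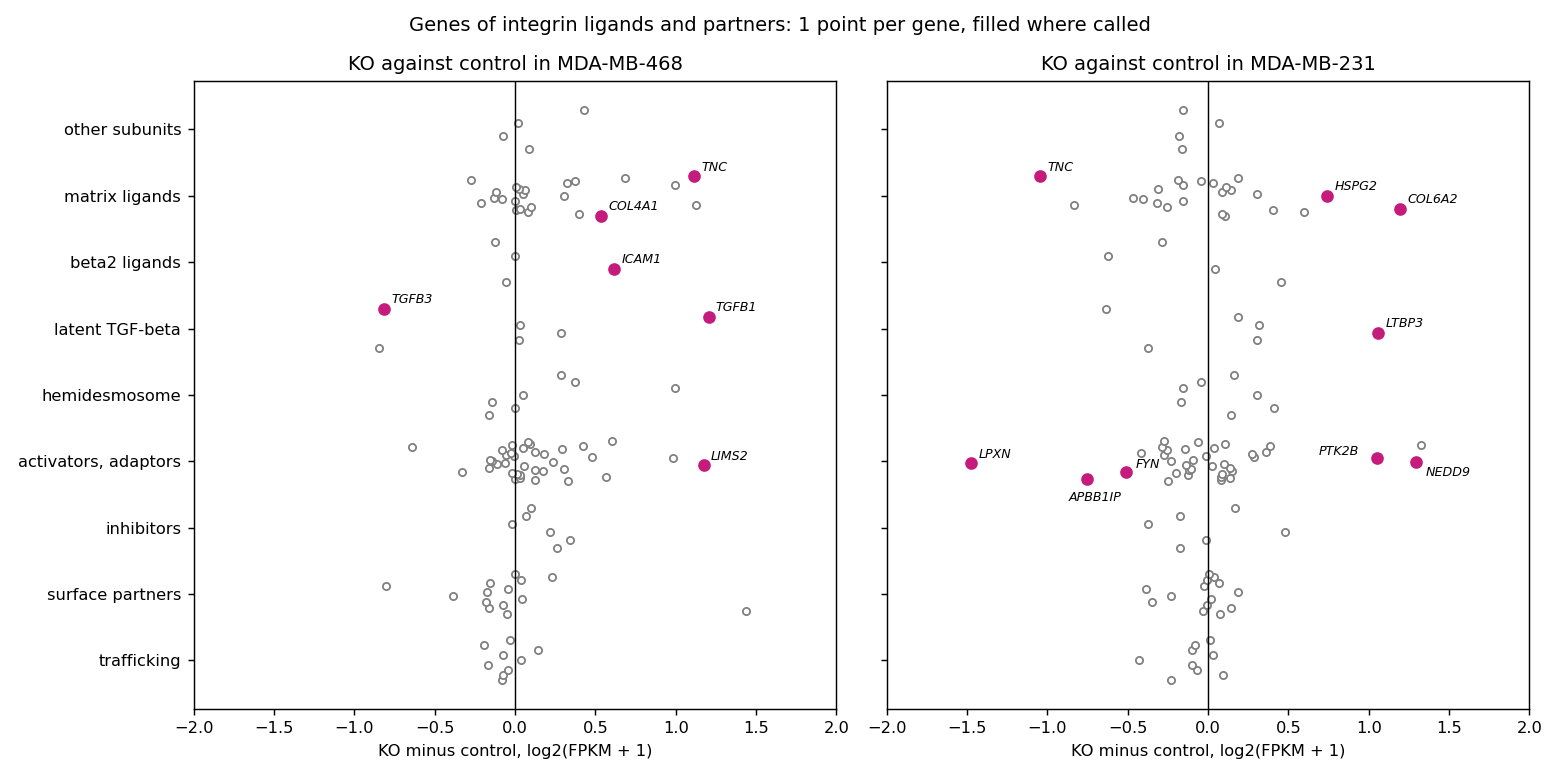
Difference of KO minus control, in log2(FPKM + 1), for the genes of 9 lists of other integrin subunits, ligands and partners, with 1 point per gene and filled points where called; the vertical position within a list only separates the points. TNC lies at 1.11 in MDA-MB-468 and at -1.04 in MDA-MB-231, and the rows of hemidesmosome, inhibitor, surface partner and trafficking genes have no filled point.

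The genes whose pattern over the 12 samples was most like that of a called member were found by Pearson correlation after each line's mean was taken off, among genes with a mean log2 value over 2. For ITGB2 these were ACSL3 (r = 0.94), MOCS1 (0.94) and CHST14 (0.93), and for ITGB4 they were CCDC92 (0.97), FAM20C (0.96) and REEP2 (0.96). They are the highest of many genes, the samples share libraries across genes, and the values are given as a description.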

How the data were processed

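RNA-seq of 12 samples, in 4 groups of 3, was analysed from 1 table. Reads had been trimmed by the authors (Trimmomatic), aligned to hg19 (STAR, two-pass mode) and turned into FPKM (RSEM). Genes whose mean FPKM or SD was below 1 had been dropped, and the deposited table holds log2(FPKM + 1) of 11529 genes. In 18 rows a date stands for the gene symbol; these were tested and not named. Counts are not used here, so the depth and counting error are unknown.

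The deposited log2 values were fitted with limma 3.58.1 in R 4.3.3 (lmFit, eBayes without a trend), each cell line alone for KO against control, and all 12 samples in 4 groups for the difference between the lines and for the control lines. P-values were adjusted over all genes by Benjamini-Hochberg. Calls needed an adjusted p under 0.05 together with a log2 difference beyond 0.5 in size, the limits used in the study; the difference between the lines needed only the adjusted p. FPKM is 2 to the value minus 1. The fit was tested on simulated data.

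Replicate numbers come from the sample titles. Deviations of same-numbered samples correlated at 0.25, 0.16 and 0.12 in MDA-MB-468 and at -0.054, 0.074 and -0.11 in MDA-MB-231. Samples of different numbers were not compared in this way, so these values do not settle whether the numbers pair the samples in either line. The values printed come from fits without the pairing in both lines, and a paired value is given where it changes a call.

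Members and lists were chosen with earlier results of these data known. Named are all members, SMARCA4, the genes of each list called in a KO comparison (at most 6 by adjusted p), and the 3 genes most like each called member; others named beside them (ITGB8, ITGAE, ITGA1, ITGB7, PLEC, COL17A1, ZYX, ACTN1, TLN1, KANK1, RSU1 and the markers) were chosen with their values known. Alternatives were a pseudocount of 0.1, a filter on low values, an intensity trend, 2 scalings, a joint fit, blocks and leaving out each sample. Positions are from GENCODE release 44 on GRCh37. Python 3.11.15 (pandas 2.3.3, numpy 2.4.6) and matplotlib 3.10.9 were used for positions and figures.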

Additional observations from a re-analysis of the deposited data

Results flagged for a closer look

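The SMARCA4 KO change of ITGB2 differed between the cell lines by 1.59 on the log2 scale (SE 0.17, adjusted p = 0.00036 in limma). It was a rise of 0.74 in MDA-MB-468 cells, with 3 of 3 KO samples above all controls, and a fall of 0.85 in MDA-MB-231 cells, with 3 of 3 below. After the filter on the SD of FPKM, ITGB2 was kept in the table only through its KO samples, so this difference is a description. Groups of 3 were too small to look for single samples that stand apart.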

How the results depend on the processing

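With the replicate number as a block, 241 genes and 0 members were called in MDA-MB-468 (ITGB2 adjusted p = 0.066). In MDA-MB-231 the same block gave 0 genes and 0 members, and 3126 genes had an unadjusted p under 0.05 (ITGB2 and ITGB4 adjusted p = 0.092). The block changed no other call of a member. The sample descriptions carry another number, whose meaning is not stated. In MDA-MB-468 it joins other samples than the replicate number does, and it leaves a control and a KO sample without a match. These were put together in a shared block. With this number as the block, 0 genes (2218 at an unadjusted p under 0.05) and 0 members were called in MDA-MB-468. A filter on a mean log2 value over 2 gave 400 genes and 2 members in MDA-MB-468 and 1 member in MDA-MB-231, and 0 members in the difference between the lines; it removes ITGB2. One fit of all 12 samples gave 537 genes and 3 members in MDA-MB-468. Leaving out 1 sample gave 0 to 474 genes and 0 to 3 members in MDA-MB-468 (0 without control replicate 2 or KO replicate 2, 474 without KO replicate 1), 99 to 311 genes and 0 to 1 members in MDA-MB-231, and 924 to 1897 genes and 1 to 2 members in the difference between the lines. The second member in that difference was ITGA3, without MDA-MB-468 KO replicate 1 (0.43, adjusted p = 0.023). The cause of these changes was not tested, except that fewer samples or genes were fitted where samples were left out or genes filtered.

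Of 574 values of single members under an alternative, 541 stayed on the same side of the limits, 19 lost the call, 14 gained it and 0 called values reversed. All 19 losses fell on the KO calls. ITGB2 lost its call in 7 of 13 alternatives in MDA-MB-468 and in 5 of 12 in MDA-MB-231, and ITGB4 in 7 of 13 in MDA-MB-231. The difference of ITGB2 between the lines was called in all 17 alternatives that keep the gene (1.51 to 2.29, adjusted p 0.00022 to 0.0047). These fits share the filter that kept ITGB2 only through its KO samples, so they add no support for the difference. In the control lines 8 or 9 members were called in all 13 alternatives. The scalings moved the median of all genes by less than 0.05. Unknown depth limits the low genes most, ITGB2 in both lines and ITGB6 in MDA-MB-231.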
